A study of Danio rerio with 18 samples.

Results

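The genes described here were 8 members of the unfolded protein response and of the stress response that runs through the transcription factor ATF4. They are atf4a, atf4b, ddit3, trib3, chac1, asns, xbp1 and hspa5. They were taken by name from 25281 genes counted in cells sorted from zebrafish eyes as retinal ganglion cells, the neurons whose axons form the optic nerve. All 8 passed the filter on low counts that left 17527 genes for testing. The title of the study places it in work on how ganglion cells survive optic nerve injury and on JAK/STAT and innate immune signalling in the retina. Fish were 3 to 5 months old and carried isl2b:GFP, in which the control region of the neuronal transcription factor gene isl2b drives green fluorescent protein. Each library came from 1000 GFP-positive cells sorted by flow cytometry. The injured groups (ONT+) were eyes collected 6, 12 or 24 hours after optic nerve transection (hours post injury, hpi). The control groups (ONT-) were the uninjured contralateral eyes at the same times, so control fish carried the same transgene and an injury on the other side. Each of the 6 groups held 3 libraries, 18 in all. The labels speak of 5 operated replicates at each time, and 3 are analysed here. The labels do not say which eyes came from the same fish or how many fish gave a library, so p-values measure the spread between these libraries, which may in part be technical.

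Proteins that fold poorly in the endoplasmic reticulum (ER) are sensed by 3 membrane proteins, PERK, IRE1 and ATF6. PERK and related kinases phosphorylate the initiation factor eIF2, which lowers translation in general and raises that of ATF4. ATF4 switches on genes for amino acid supply and, with its partner CHOP (the product of ddit3), genes tied to cell death. IRE1 splices xbp1 mRNA into the form that encodes an active factor, and hspa5 encodes the main ER chaperone. In mice, CHOP and XBP1 have both been studied as factors that bear on the survival of retinal ganglion cells after optic nerve injury. ATF4 activity is set largely by translation and XBP1 activity by splicing, and the counts used here, summed per gene, show neither.

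Total counts per library were 19001181 to 28329194 in the 9 injured and 15490375 to 24963959 in the 9 control libraries. Of 17 ganglion cell marker genes matched, each library had counts for 16 or 17. Together they made up 0.0468% to 0.266% of counts in injured and 0.0794% to 0.286% in control libraries. Levels of a gene between libraries are given as CPM, the usual counts relative to library size, here with edgeR's TMM factors, and isl2b ranged from 12.2 to 298 CPM. At 24 hpi isl2b stood at 39.6 to 100.6 CPM in injured libraries, against 224 to 291 CPM in control libraries, with no overlap, while at 6 and 12 hpi the groups overlapped (log2 fold change at 24 hpi -2.13, SE 0.91; edgeR unadjusted p = 0.0318, adjusted p = 0.538). All 22 rod and cone markers had counts in every injured library, and they took 15.4% to 24.8% of counts there, against 12.6% to 21.6% in control libraries. Transcripts of photoreceptors were thus abundant in the sorted material. The 8 bipolar cell markers matched took 0.162% to 0.215% of counts in injured and 0.172% to 0.281% in control libraries. The 10 Mueller glia markers took 0.196% to 0.416% in injured and 0.180% to 0.410% in control libraries. Such shares depend on the genes in each list and do not give shares of cells. The 15 macrophage and microglia markers together stayed at or below 0.0266% of counts. Single markers differed: p2ry12 was at 0 in 17 of 18 libraries and the macrophage marker mpeg1.1 in 15. In contrast, ptprc was at 0 in 3 libraries and hexb in 0, with 15.8 to 84.0 CPM. Injured 12 hpi replicate 2 had counts for all 15 markers. The sample-sheet numbers in the labels run in plate order over 14 libraries, and 4 more carry numbers that occur a second time. These are control 6 hpi replicates 2 and 3, control 24 hpi replicate 1 and injured 24 hpi replicate 3. Whether these 4, called the repeated-number libraries here, were sequenced apart from the others is not given in the sources used here.

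Per exon length, the 8 genes spanned more than 2 orders of magnitude, with an ATF4 gene at the top and asparagine synthetase at the bottom. The authors' RPKM (reads scaled to exon length and to mapped reads) averaged 205 ± 28.7 for atf4b, 178 ± 22.1 for chac1 and 131 ± 31.6 for xbp1 over all libraries (SD, n = 18). Of all 25281 genes, 1.04%, 1.23% and 1.71% had a higher mean RPKM than atf4b, chac1 and xbp1. Below them, hspa5 averaged 85.5 ± 24.7 RPKM and atf4a 79.9 ± 20.4 RPKM. A wide step separated these 5 genes from trib3 at 11.8 ± 5.72 RPKM, ddit3 at 8.92 ± 4.55 RPKM and asns at 1.12 ± 0.329 RPKM. The stress genes chac1 and trib3, both targets of ATF4 in mammals, thus stood far apart in level, with chac1 close to the atf4b factor gene and trib3 among the low ones. The spread over libraries was narrowest for atf4b, whose CPM varied by 12.6% (coefficient of variation over 18 libraries), and widest for ddit3 and trib3, at 51.2% and 48.8%. Among the low genes, asns rested on 48 to 194 counts per library and ddit3 on 156 to 939, against at least 1692 for each of those 5.

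**Figure D1:**
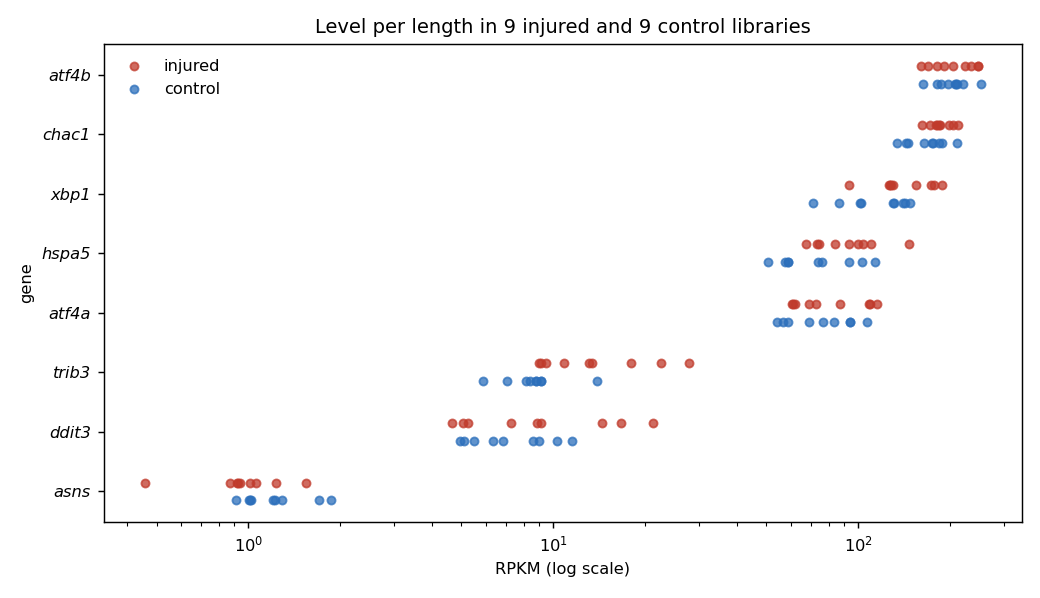
Authors' RPKM of the 8 genes in the 9 injured (upper, red) and 9 control (lower, blue) libraries, 1 point per library, on a log axis. The 5 genes from atf4b to atf4a all lie above 50.6 RPKM, and trib3, ddit3 and asns all lie at or below 27.8 RPKM.

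In the GRCz11 zebrafish assembly named in the submitters' processing notes, atf4b (ENSDARG00000038141) lies on chromosome 3 at 24197934 to 24200819. The gene atf4a (ENSDARG00000111939) lies on chromosome 6 at 269204 to 272554, and both are on the plus strand. The gene ddit3 (ENSDARG00000059836) lies on the plus strand of chromosome 6 at 58915889 to 58919086, and trib3 (ENSDARG00000016200) on the minus strand of chromosome 11 at 24058530 to 24063196. The chaperone gene hspa5 (ENSDARG00000103846; 2713779 to 2721686) and xbp1 (ENSDARG00000035622; 15944411 to 15948920) lie on the minus strand of chromosome 5. The gene asns (ENSDARG00000016375) is at 25656812 to 25678002 on the minus strand of chromosome 19, and chac1 (ENSDARG00000070426) at 28266892 to 28269462 on the plus strand of chromosome 20. With the exception of chac1, no member overlapped another gene of the tables. The chac1 gene overlaps ino80, a chromatin remodelling gene on the opposite strand with 417 to 1152 counts per library where chac1 had at least 5248. Whether counting used the strand is not given in the sources used here.

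No member passed the threshold for an injury effect with edgeR's quasi-likelihood test, and several leaned towards higher levels in injured eyes. Adjustment (Benjamini-Hochberg) ran over all 17527 genes. The members were chosen with earlier results of these data known, so the shares of all genes set beside theirs are a description. Of the 8 members 0 were called at 6, 12 or 24 hpi or for the mean of the 3 effects, beside 0% of all genes in each of these tests. At an unadjusted p under 0.05, 4 members stood higher at 6 hpi, 0 at 12 hpi, 3 at 24 hpi and 4 for the mean effect. Of all genes 9.28%, 3.64%, 8.48% and 12.6% passed that level in either direction, and 5.20%, 1.90%, 3.39% and 6.40% passed it with a higher level. The log2 fold change of injured over control was above 0 for 6, 5 and 6 of 8 members at 6, 12 and 24 hpi and for 7 of 8 in the mean effect. Among all genes 48.0%, 50.1%, 51.4% and 49.5% were above 0. Its median over the 8 was 0.33, 0.23 and 0.26 at the 3 times and 0.29 for the mean effect, where the median of all genes was -0.02, 0.0, 0.02 and 0.0. Every injured library lay above every control for 3 members at 6 hpi (xbp1, hspa5 and trib3), for 0 at 12 hpi and for 3 at 24 hpi (atf4a, xbp1 and trib3), beside 6.13%, 4.14% and 7.85% of all genes. Every injured library lay below for 0 members at each time, beside 7.13%, 4.26% and 8.40% of all genes. Both counts rest on CPM. In the authors' RPKM the injured and control groups of xbp1, hspa5 and trib3 overlapped at 6 hpi. Those of atf4a, xbp1 and trib3 at 24 hpi did not overlap in RPKM either. DESeq2, run as an alternative, called hspa5 at 6 hpi (90 of 16435 genes, 0.548%) and no member at 12 or 24 hpi (0.0311% and 1.28% of all genes). For the mean effect it called trib3, hspa5 and xbp1 (234 of 11721 genes, 2.00%).

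**Figure D2:**
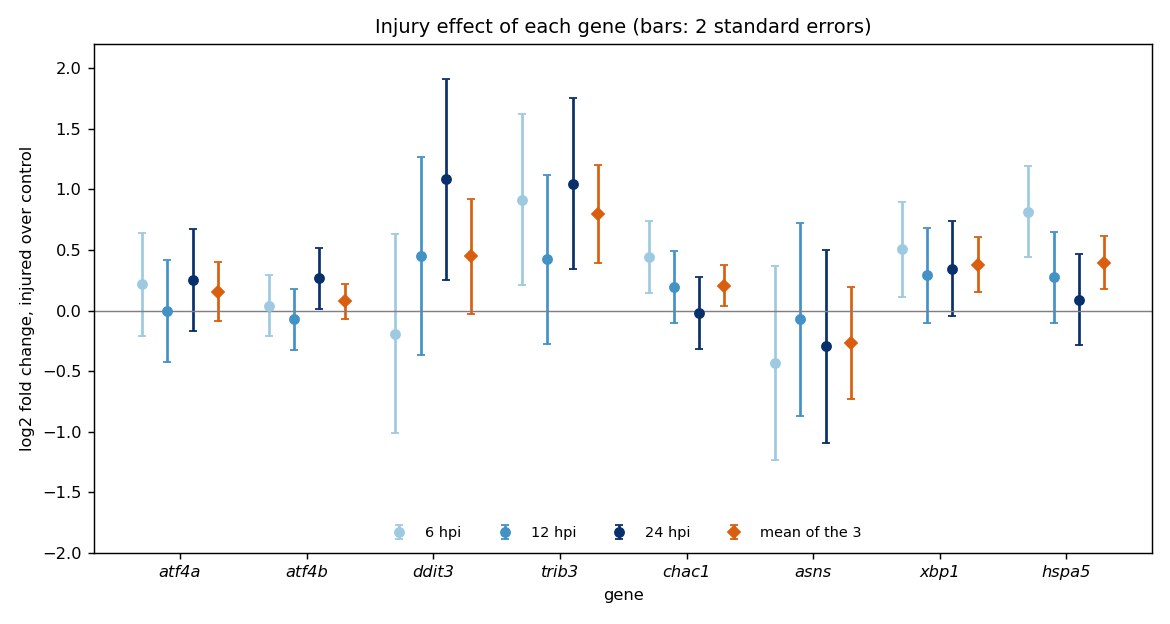
Log2 fold change of injured over control for each gene at 6, 12 and 24 hpi (circles, light to dark blue) and for the mean of the 3 (orange diamonds), from edgeR; bars span 2 standard errors to each side. The highest value is that of ddit3 at 24 hpi, 1.08, and asns lies below 0 at all 3 times.

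The ER chaperone gene hspa5, which encodes BiP, had its widest gap between injured and control eyes at 6 hpi. At 6 hpi it stood at 233, 389 and 293 CPM in injured replicates 1, 2 and 3, against 210.5, 134 and 176 CPM in control replicates 1, 2 and 3. In CPM each injured library was above each control, the closest pair being injured replicate 1 and control replicate 1. In the authors' RPKM the order of that pair turned (73.1 injured, 76.2 control), so the groups overlapped. On the log2 scale injured exceeded control by 0.82 (SE 0.19), with an unadjusted p of 0.000488 and an adjusted p of 0.376 in edgeR. DESeq2 gave an adjusted p of 0.0128, and over all alternatives run it lay between 0.0128 and 0.882. With the repeated-number libraries as a covariate the log2 fold change was 0.66 (edgeR adjusted p = 0.715). Among the other libraries of that time, 3 injured and 1 control, the difference in mean log2 CPM was 0.50. At 12 hpi hspa5 stood at 262, 193 and 197 CPM in injured libraries, against 201, 173 and 165 CPM in control libraries. At 24 hpi the values were 358, 341 and 319 CPM in injured libraries, against 289, 352 and 316 CPM in control libraries. At both of these later times the groups overlapped, although the injured mean was the higher one. The log2 fold changes were 0.27 (SE 0.19) and 0.09 (SE 0.19), with adjusted p-values of 1.0 and 0.957 in edgeR. The intervals of 2 standard errors were -0.10 to 0.65 and -0.29 to 0.47. Over the 3 times the mean effect was 0.39 (SE 0.11), which edgeR gave an adjusted p of 0.217 and DESeq2 one of 0.0314. Injured libraries held more rod and cone marker counts on average, and fewer cells of a type and less RNA per cell cannot be told apart in such bulk samples. At 6 hpi the rod and cone share was 15.4% to 23.1% in injured and 12.6% to 20.3% in control libraries, and its part in the hspa5 difference was not tested.

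The mRNA of xbp1 is the splicing target of IRE1. Its CPM was higher in every injured library than in any control at 6 and at 24 hpi. The xbp1 differences did not pass edgeR's adjusted threshold. At 6 hpi its values were 384, 324 and 279 CPM in injured libraries, against 268, 179 and 247 CPM in control libraries. At 24 hpi the values were 476, 542 and 539 CPM in injured libraries, against 382, 436 and 409.9 CPM in control libraries. The gap between the groups was narrow at 6 hpi, where injured replicate 3 lay just above control replicate 1, and wider at 24 hpi. In the authors' RPKM injured replicate 3 (93.1) lay below control replicate 1 (102) at 6 hpi, so the groups overlapped. At 24 hpi they did not overlap in RPKM. Injured over control, log2 fold changes were 0.51 (SE 0.20) at 6 hpi and 0.34 (SE 0.20) at 24 hpi (edgeR adjusted p = 0.494 and 0.668). At 12 hpi xbp1 stood at 559, 354 and 321 CPM in injured libraries, against 339, 291 and 379.5 CPM in control libraries. There injured replicate 1 was far above the rest and injured replicate 3 lay below 2 of the controls. A log2 fold change of 0.29 (SE 0.20) became 0.004 without that highest library. The mean effect over the 3 times was 0.38 (SE 0.11), with an interval of 2 standard errors of 0.15 to 0.61. The edgeR test gave it an unadjusted p of 0.00378 and an adjusted p of 0.222, and DESeq2 an adjusted p of 0.0497. With the repeated-number libraries as a covariate that effect was 0.35 (edgeR adjusted p = 0.34). The log2 fold change at 6 hpi was then 0.42 (edgeR adjusted p = 0.77). Among the other libraries of 6 hpi, 3 injured and 1 control, the difference in mean log2 CPM was 0.28. At 24 hpi, where all injured libraries also held a larger share of rod and cone marker counts (23.4% to 24.8%, against 21.4% to 21.6% in control libraries), and isl2b and the ganglion cell markers were lower, the part of these shifts in the differences of the 8 genes was not tested.

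**Figure D3:**
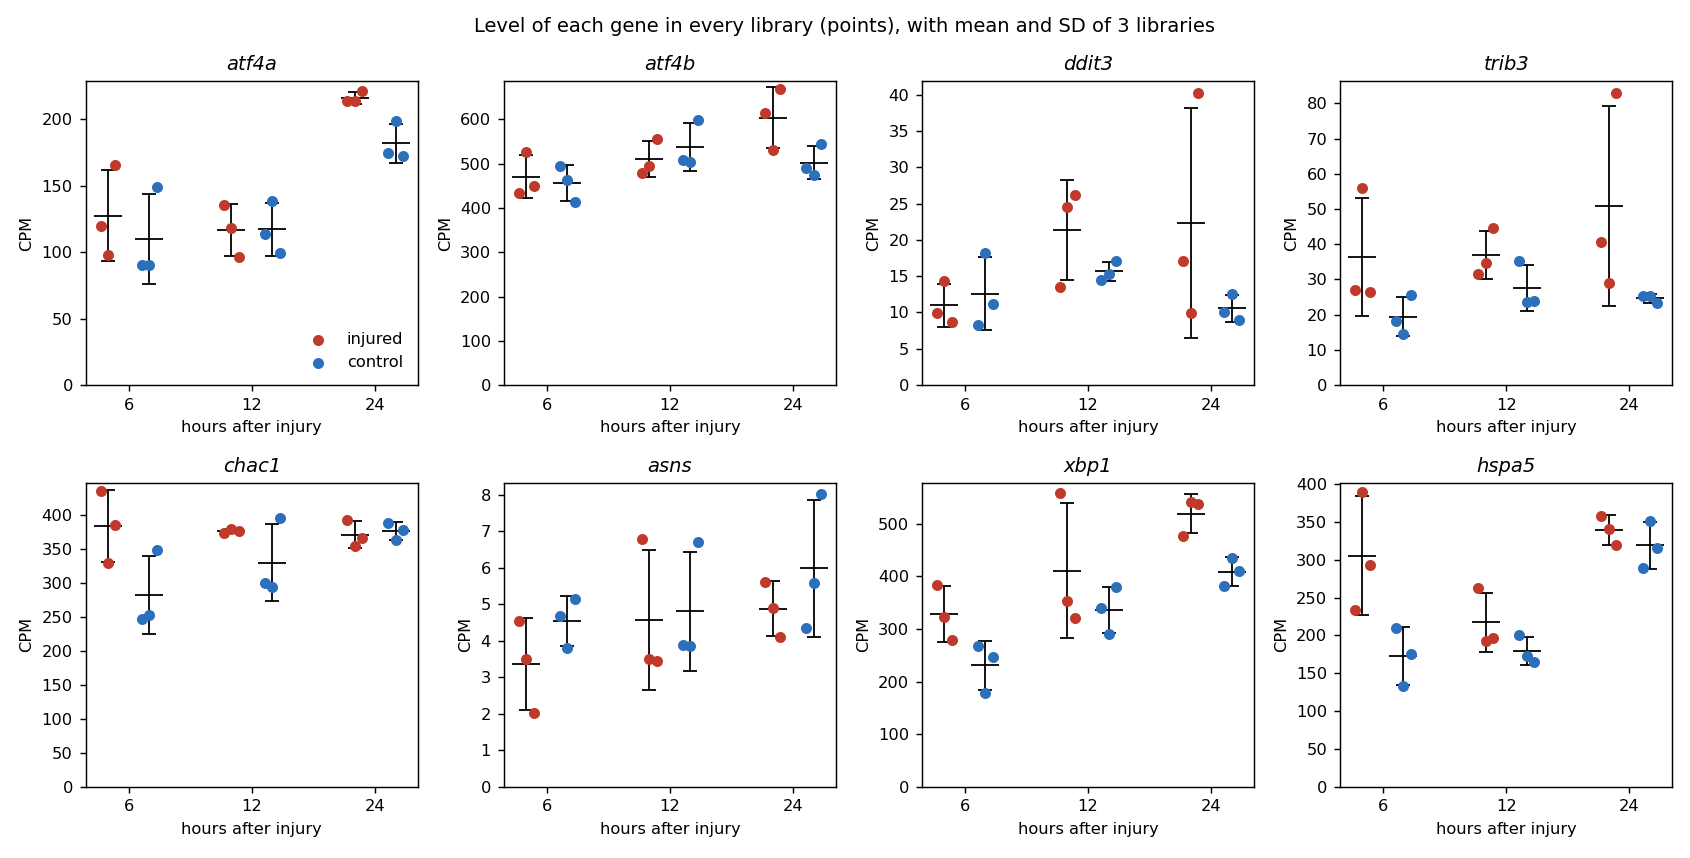
CPM of each gene in every library (points) at 6, 12 and 24 hpi, injured (red) left of control (blue), with the mean and SD of 3 libraries (bars); each panel has its own axis from 0. Injured points of hspa5, xbp1 and trib3 lie above all control points at 6 hpi, and those of atf4a, xbp1 and trib3 do so at 24 hpi.

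The 2 copies of the ATF4 gene in zebrafish, atf4a and atf4b, encode the factor that raised eIF2 phosphorylation brings into translation. Their injured and control groups overlapped at 6 and 12 hpi, and at 24 hpi those of atf4a did not. At 24 hpi atf4a stood at 213, 213 and 221 CPM in injured libraries, against 174, 199 and 172 CPM in control libraries. All injured libraries were higher, and they lay within a few CPM of each other. Their log2 fold change over control was 0.25 (SE 0.21), with an interval of 2 standard errors of -0.17 to 0.67 and an edgeR adjusted p of 0.827. At 6 hpi its values were 119, 97.8 and 165 CPM in injured libraries, against 90.0, 90.3 and 149 CPM in control libraries. At 12 hpi the values were 136, 118 and 96.7 CPM in injured libraries, against 113, 139 and 99.4 CPM in control libraries. The groups overlapped at both times, and replicate 3 was the highest of its group at 6 hpi in injured and control eyes alike. At 6 hpi the log2 fold change was 0.22 (SE 0.21), and it became -0.02 without injured replicate 3. At 12 hpi it was -0.002 (SE 0.21), and scaling by DESeq2-type size factors in place of TMM gave 0.008. The adjusted p in edgeR was 0.813 at 6 hpi and 1.0 at 12 hpi. The second copy, atf4b, stood at 614, 530.3 and 668 CPM in injured libraries at 24 hpi, against 489.5, 474 and 544 CPM in control libraries. Injured replicates 1 and 3 were above every control and injured replicate 2 was not, and the log2 fold change was 0.27 (SE 0.13; edgeR unadjusted p = 0.0497, adjusted p = 0.589). At 6 hpi atf4b stood at 434, 525 and 451 CPM in injured libraries, against 494, 464 and 413 CPM in control libraries. At 12 hpi the values were 480.1, 496 and 557 CPM in injured libraries, against 509, 505 and 599 CPM in control libraries. Its log2 fold changes there were 0.04 (SE 0.13) and -0.07 (SE 0.13), and the intervals of 2 standard errors, -0.21 to 0.29 and -0.33 to 0.18, were the narrowest of the 8 genes. Per length, atf4b exceeded atf4a in every library. The ratio of their RPKM was 2.78 ± 0.952 in injured libraries and 3.17 ± 1.05 in control libraries at 6 hpi (SD, n = 3 each). At 12 hpi the ratio was 3.19 ± 0.810 in injured and 3.35 ± 0.860 in control libraries. At 24 hpi it was 1.98 ± 0.196 in injured and 1.98 ± 0.275 in control libraries. The mean ratio was lowest at 24 hpi in injured and in control eyes.

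Downstream of ATF4, the largest fold differences were those of ddit3, which encodes the factor CHOP, and trib3, which encodes a pseudokinase induced by ATF4 and CHOP in mammals. At 24 hpi both differences rested largely on 1 library. At 24 hpi trib3 stood at 40.6, 29.0 and 82.9 CPM in injured libraries, against 25.3, 25.3 and 23.2 CPM in control libraries. Injured replicate 3 was the highest of all 18 libraries, replicate 2 lay only just above the controls, and the controls lay close together. Its log2 fold change was 1.05 (SE 0.35; edgeR unadjusted p = 0.0086, adjusted p = 0.4), and it was 0.50 without injured replicate 3. At 24 hpi ddit3 stood at 17.0, 9.89 and 40.2 CPM in injured libraries, against 10.1, 12.6 and 8.98 CPM in control libraries. The same injured replicate 3 was the highest of all libraries, and injured replicate 2 lay within the control range. For ddit3 the log2 fold change was 1.08 (SE 0.42; edgeR unadjusted p = 0.0183, adjusted p = 0.489), and it was 0.35 without injured replicate 3. That library is one of the repeated-number libraries. Against the 1 control of the same kind the difference in log2 CPM was 1.71 for trib3 and 1.98 for ddit3. Among the other 2 injured and 2 control libraries the difference of means was 0.50 and 0.29.

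At 6 hpi trib3 stood at 27.1, 55.8 and 26.4 CPM in injured libraries, against 18.2, 14.5 and 25.5 CPM in control libraries. Each injured library was above each control, replicates 1 and 3 only narrowly so, and replicate 2 stood well apart. The log2 fold change was 0.91 (SE 0.35; edgeR unadjusted p = 0.0188, adjusted p = 0.488). It was 0.47 without injured replicate 2 and 1.24 with the repeated-number libraries as a covariate. At 12 hpi trib3 stood at 31.5, 34.8 and 44.6 CPM in injured libraries, against 35.2, 23.5 and 23.9 CPM in control libraries. There control replicate 1 lay above 2 of the injured libraries, and the log2 fold change was 0.42 (SE 0.35). Over the 3 times the mean effect on trib3 was 0.79 (SE 0.20), the largest of the 8 genes, with an interval of 2 standard errors of 0.39 to 1.20. Its unadjusted p was 0.00112 and its adjusted p 0.179 in edgeR, and its adjusted p in DESeq2 was 0.0176. In edgeR fits that left out 1 library at a time, this effect ran from 0.61 to 0.89 and its adjusted p from 0.128 to 0.357. For ddit3, values at 6 hpi were 9.92, 14.3 and 8.71 CPM in injured libraries, against 8.33, 18.1 and 11.2 CPM in control libraries. At 12 hpi the values were 13.5, 24.6 and 26.2 CPM in injured libraries, against 14.5, 15.4 and 17.1 CPM in control libraries. At 12 hpi injured replicates 2 and 3 were above every control and replicate 1 below them all, and at 6 hpi control replicate 2 was the highest. At 6 hpi the ddit3 log2 fold change was -0.19 (SE 0.41), and its sign turned to 0.41 under the repeated-number covariate and to 0.17 without control replicate 2. It was 0.45 (SE 0.41) at 12 hpi and 0.45 (SE 0.24) for the mean effect, and edgeR's adjusted p was 0.938, 1.0 and 0.457 for the 3 values.

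Within the injured groups, ddit3, trib3 and atf4b were highest in the library with the most ganglion cell marker expression, and so was ddit3 within the control groups. The ganglion cell score, the mean log2 CPM of 16 marker genes, was 4.22, 5.80 and 4.53 in injured replicates 1, 2 and 3 at 6 hpi, against 5.40, 6.26 and 5.89 in control replicates. At 12 hpi the score was 3.78, 5.73 and 6.40 in injured libraries, against 5.89, 4.69 and 6.01 in control libraries. At 24 hpi it was 4.92, 4.45 and 5.56 in injured libraries, against 5.91, 6.19 and 5.75 in control libraries. At 24 hpi all injured libraries scored below all controls, and at 6 and 12 hpi the groups overlapped. The highest-scoring injured library had the highest trib3 and the highest ddit3 in 3 of 3 time points, and the same held for atf4b. Among the control groups it held in 1 of 3 for trib3, 3 of 3 for ddit3 and 1 of 3 for atf4b. For hspa5 and atf4a it held in 1 of 3 injured groups, and for xbp1, chac1 and asns in 0 of 3. In the control groups it held in 2 of 3 for xbp1 and in 1 of 3 for each of hspa5, atf4a, chac1 and asns. How often it held over all genes was not counted. The highest-scoring injured libraries also had the lowest rod and cone share of their group. It was 15.4% in 6 hpi replicate 2, 15.9% in 12 hpi replicate 3 and 23.4% in 24 hpi replicate 3. The share of Mueller glia markers was highest in these libraries at 6 and 12 hpi (0.416% and 0.333%) and not at 24 hpi. With 3 libraries in a group these orders are a description, and injured 24 hpi replicate 3 is among the repeated-number libraries. The part of the marker score, or of these other shares, in the ddit3 and trib3 differences was not tested.

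**Figure D4:**
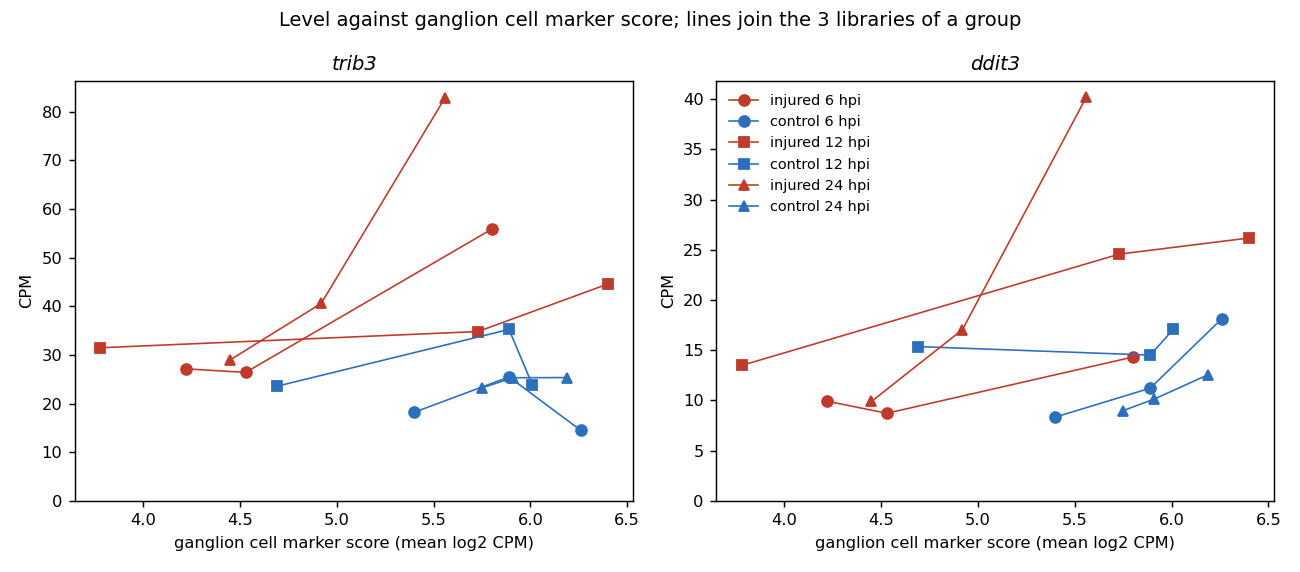
CPM of trib3 (left) and ddit3 (right) against the ganglion cell marker score of the library (mean log2 CPM of 16 genes); colour gives injured (red) or control (blue), marker shape the time, and lines join the 3 libraries of a group. In each red group the rightmost point is the highest, up to 82.9 CPM for trib3 and 40.2 CPM for ddit3 in injured 24 hpi replicate 3.

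The enzyme genes downstream of ATF4, chac1 and asns, leaned in opposite directions at 6 hpi, and neither passed the threshold. The chac1 gene encodes an enzyme that breaks down glutathione and is induced by ATF4 in mammals, and it had its widest gap at 6 hpi. At 6 hpi it stood at 435, 329 and 386 CPM in injured libraries, against 246, 252 and 348 CPM in control libraries. Injured replicates 1 and 3 were above every control, and injured replicate 2 lay below control replicate 3. Its log2 fold change at 6 hpi was 0.44 (SE 0.15; edgeR unadjusted p = 0.00848, adjusted p = 0.448). Its values at 12 hpi were 374, 379 and 376 CPM in injured libraries, against 299, 294 and 395 CPM in control libraries. At 24 hpi the values were 392, 354 and 366 CPM in injured libraries, against 389, 363 and 377 CPM in control libraries. Injured libraries at 12 hpi lay within a few CPM of each other inside a wide control range, and at 24 hpi the groups lay on top of each other. The log2 fold changes there were 0.19 (SE 0.15) and -0.02 (SE 0.15), with intervals of 2 standard errors of -0.10 to 0.49 and -0.32 to 0.28. The mean effect was 0.20 (SE 0.09; edgeR adjusted p = 0.338). Asparagine synthetase, encoded by asns and induced by ATF4 when amino acids are short, was the 1 member with a mean effect below 0. It stood at 4.55, 3.49 and 2.03 CPM in injured libraries at 6 hpi, against 4.68, 3.80 and 5.14 CPM in control libraries. At 12 hpi the values were 6.78, 3.50 and 3.44 CPM in injured libraries, against 3.87, 3.87 and 6.70 CPM in control libraries. At 24 hpi they were 5.62, 4.90 and 4.11 CPM in injured libraries, against 4.35, 5.58 and 8.03 CPM in control libraries. The groups overlapped at each time, and the level was low throughout. The log2 fold changes were -0.43 (SE 0.40), -0.07 (SE 0.40) and -0.30 (SE 0.40) at 6, 12 and 24 hpi. The mean effect was -0.27 (SE 0.23), with an interval of 2 standard errors of -0.73 to 0.19 and an edgeR adjusted p of 0.688.

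Whether the injury effect differed between the times was tested as such, and 0 of the 8 members, like 0% of all genes, passed in edgeR's joint test. At an unadjusted p under 0.05 there was 1 member, beside 5.00% of all genes: hspa5, with an edgeR adjusted p of 0.992. DESeq2 called 0 members, beside 0.0737% of all genes. The hspa5 effect at 24 hpi minus that at 6 hpi was -0.73 on the log2 scale. For ddit3 the effect at 24 hpi was higher by 1.28 (edgeR adjusted p = 1.0). Levels also differed over time in eyes without injury. The tests over time, in edgeR and in DESeq2, were joint: 12 and 24 hpi were both set against 6 hpi. Their p-values therefore cover both changes, not the change from 6 to 24 hpi alone. Across the control groups edgeR called 1 member, hspa5 (unadjusted p = 0.000221, adjusted p = 0.0218), beside 1.54% of all genes. In that test 4 members had an unadjusted p under 0.05, beside 12.0% of all genes. In control eyes hspa5 averaged 173 ± 38.4 CPM at 6 hpi, 179.8 ± 18.7 CPM at 12 hpi and 319 ± 31.3 CPM at 24 hpi (SD, n = 3 each). It rose at 24 hpi by 0.88 on the log2 scale relative to 6 hpi. The hspa5 call did not hold without control 12 hpi replicate 3 (edgeR adjusted p = 0.0504) and without each of the control 24 hpi replicates 1, 2 and 3 (edgeR adjusted p = 0.0569, 0.16 and 0.0839). Its log2 change stayed between 0.73 and 1.04 in all fits that left out 1 library. In injured eyes hspa5 averaged 305 ± 78.6 CPM at 6 hpi, 217 ± 39.0 CPM at 12 hpi and 339 ± 19.3 CPM at 24 hpi, the middle time being the lowest (edgeR adjusted p = 0.197). The xbp1 averages were 329 ± 52.5, 411 ± 129 and 519 ± 36.9 CPM in injured eyes at 6, 12 and 24 hpi and 232 ± 46.7, 337 ± 44.2 and 409 ± 27.3 CPM in control eyes. The steps went up with time in both, with edgeR adjusted p-values of 0.224 in injured and 0.099 in control eyes, and an adjusted p of 0.00712 for control eyes in DESeq2. For atf4a the averages were 127 ± 34.4, 117 ± 19.5 and 216 ± 4.56 CPM in injured eyes and 109.8 ± 34.1, 117 ± 19.9 and 182 ± 14.8 CPM in control eyes. Both were highest at 24 hpi, by 0.76 and 0.73 on the log2 scale over 6 hpi (edgeR adjusted p = 0.0547 in injured and 0.146 in control eyes; DESeq2 adjusted p = 0.00268 and 0.0249). Across the injured groups edgeR called 0 members, beside 1.53% of all genes. There 5 members had an unadjusted p under 0.05, beside 12.6% of all genes. DESeq2 called 3 members across the control groups (atf4a, xbp1 and hspa5), beside 4.74% of all genes, and 1 across the injured groups (atf4a), beside 5.08%. Rod and cone markers took 15.4% to 23.1% of counts in injured and 12.6% to 20.3% in control libraries at 6 hpi. They took 23.4% to 24.8% in injured and 21.4% to 21.6% in control libraries at 24 hpi. Their part in these levels was not tested.

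Ranked by mean RPKM over the 6 groups, atf4a ran from injured 24 hpi at 111 ± 3.76 and control 24 hpi at 98.2 ± 7.73 to control 6 hpi at 64.7 ± 15.9. The 2 steps that exceeded the larger SD of the neighbours were those below injured 24 hpi and below control 24 hpi. For hspa5 the order was injured 24 hpi (105 ± 5.28), injured 6 hpi (104 ± 38.0), control 24 hpi (103.5 ± 10.2), injured 12 hpi (75.3 ± 8.43), control 12 hpi (63.3 ± 8.96) and control 6 hpi (61.9 ± 13.1). Steps beyond the larger SD lay on both sides of injured 12 hpi. The order for xbp1 was injured 24 hpi (168 ± 12.2), injured 12 hpi (149 ± 34.7), control 24 hpi (139.5 ± 9.41), control 12 hpi (125 ± 21.0), injured 6 hpi (116 ± 19.7) and control 6 hpi (86.7 ± 15.5). Of these 5 steps only the last exceeded the larger SD. For atf4b, ddit3, trib3, chac1 and asns no neighbours in the order differed by more than the larger SD. Highest and lowest groups were control 12 hpi (223 ± 27.4 RPKM) and injured 6 hpi (188 ± 40.0 RPKM) for atf4b. They were injured 12 hpi (197 ± 16.5 RPKM) and control 6 hpi (150.2 ± 21.2 RPKM) for chac1, and injured 24 hpi (16.9 ± 9.66 RPKM) and control 6 hpi (7.37 ± 1.65 RPKM) for trib3. They were injured 12 hpi (12.8 ± 4.89 RPKM) and control 24 hpi (5.77 ± 0.982 RPKM) for ddit3. For asns they were control 24 hpi (1.39 ± 0.442 RPKM) and injured 6 hpi (0.804 ± 0.301 RPKM).

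The authors' deposited table gives their own fold changes and adjusted p-values, from a test not given in the sources used here. At 6 hpi the authors' deposited table has hspa5 as the 1 member under an adjusted p of 0.05, with a log2 fold change of 0.82 (adjusted p = 0.0469). Of the genes with an adjusted p in the authors' deposited table, 0.603% of 21215 passed there, 0.391% as higher. At 24 hpi the authors' deposited table has trib3 as the 1 member that passed, with 1.04 (adjusted p = 0.0232), where 2.41% of 21035 genes passed, 0.466% as higher. At 12 hpi 0 members passed in the authors' deposited table, where 0.109% of 21130 genes did, 0.0663% as higher. For ddit3 at 24 hpi the authors' deposited table has 1.08 (adjusted p = 0.212) and for trib3 at 6 hpi 0.92 (adjusted p = 0.202). Both called values compare with 0.82 for hspa5 and 1.05 for trib3 in the edgeR fit over 18 libraries, where neither passed.

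Around the 8 genes, 7 lists of 134 pathway genes were examined, of which 126 were matched and 122 tested. None was called for an injury effect at any time or in the mean by edgeR. At an unadjusted p under 0.05, 18 stood higher and 3 lower at 6 hpi, 4 higher and 1 lower at 12 hpi, 3 higher and 0 lower at 24 hpi, and 24 higher and 1 lower for the mean effect. The shares of all genes that stood higher in these tests were 5.20%, 1.90%, 3.39% and 6.40%, and those lower 4.07%, 1.74%, 5.09% and 6.16%. The mean effect was above 0 for 99 of the 122, with a median of 0.18 on the log2 scale. It was above 0 for 49.5% of all genes, with a median of 0.0. The lists, too, were chosen with earlier results of these data known, so this comparison is a description. For the mean effect DESeq2 called 2 of the listed genes, slc3a2b and sel1l, where it called 2.00% of all genes with an adjusted p. The listed gene that stood lower at an unadjusted p under 0.05 was eif2ak2, a kinase gene of the eIF2 list, with a mean effect of -0.84 (edgeR adjusted p = 0.372); it was chosen for mention after its values were seen. The amino acid supply list leaned higher: of 22 tested, 18 had a mean effect above 0 and 6 had an unadjusted p under 0.05 with a higher level. Its gene with the smallest p, slc3a2b, encodes the heavy chain of amino acid transporters and stood at 274, 274 and 271 CPM in injured libraries at 6 hpi, against 182, 156 and 181 CPM in control libraries. At 12 hpi slc3a2b stood at 299, 311 and 231 CPM in injured libraries, against 229.7, 222 and 246 CPM in control libraries. At 24 hpi it stood at 249, 235 and 258 CPM in injured libraries, against 226, 225 and 253 CPM in control libraries. The gap was clear of overlap at 6 hpi and the groups overlapped at 12 and 24 hpi. The mean effect on slc3a2b was 0.33 (SE 0.07; edgeR adjusted p = 0.103; DESeq2 adjusted p = 0.000421). The gene slc7a5, which encodes a light chain that pairs with it, had a mean effect of 0.46 (SE 0.17; edgeR adjusted p = 0.276). Of 17 cytosolic tRNA synthetases all 17 had a mean effect above 0, with a median of 0.18. The smallest p among them was that of rars, the synthetase gene for arginine, whose mean effect was 0.43 (SE 0.13, edgeR adjusted p = 0.22).

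Among 23 genes of the IRE1 branch and ER-associated degradation, 17 had a mean effect above 0 and the median was 0.19. The gene sel1l, which encodes the adaptor of the HRD1 ubiquitin ligase, stood at 100.1, 82.1 and 90.6 CPM in injured libraries at 6 hpi, against 65.8, 60.0 and 76.3 CPM in control libraries. It stood at 136, 127 and 106 CPM in injured libraries at 24 hpi, against 73.2, 80.4 and 103 CPM in control libraries. In CPM each injured library lay above each control at both times, beside 6.13% and 7.85% of all genes at 6 and 24 hpi. By the authors' RPKM, injured replicate 3 (17.723) lay below control replicate 3 (17.995) at 24 hpi, so the groups overlapped there. At 6 hpi they did not overlap in RPKM either. The gene sel1l was named for its small p in the mean injury effect, so this order is a description. The groups overlapped at 12 hpi, with 93.7, 103.9 and 80.0 CPM in injured libraries, against 78.4, 81.2 and 82.1 CPM in control libraries. The mean effect was 0.39 (SE 0.09; edgeR adjusted p = 0.142; DESeq2 adjusted p = 0.00604). Of 26 ER chaperones and folding enzymes, 21 had a mean effect above 0 with a median of 0.08. The gene hsp90b1, the ER member of the HSP90 family, had 0.30 (SE 0.10) and the lectin chaperone gene canx 0.38 (SE 0.15; edgeR adjusted p = 0.247 and 0.303). Of 15 ATF4 partners and regulators, 11 were above 0 with a median of 0.28. The gene atf5a, a factor gene of the ATF4 family, had the smallest p of them, with a mean effect of 0.56 (SE 0.17, edgeR adjusted p = 0.234). Of 13 genes for eIF2, its kinases, its phosphatase subunits and its exchange factor, 12 were above 0 with a median of 0.17. The gene ppp1r15a, which encodes the phosphatase subunit GADD34, had 0.34 (SE 0.12; edgeR adjusted p = 0.264). The ATF6 branch, with 6 genes tested, was split 3 to 3 around a median of 0.01, and atf6 itself had -0.15 (SE 0.12; edgeR adjusted p = 0.644). The genes with the next smallest p by list, among those with an average log2 CPM of at least 3, follow with their mean effects in brackets. They were eif2b2 and eif2b3, subunits of the eIF2 exchange factor (0.27 and 0.17), and vldlr and cebpg (0.28 and 0.18). They were followed in their lists by the neutral amino acid transporter gene slc1a4 (0.41), vars and yars (0.37 and 0.31), ssr1 and os9 (0.24 and 0.21), creb3l2 and mbtps1 (0.18 and 0.10) and pdia6 (0.23), and none of these mean effects on the log2 scale passed edgeR's adjusted threshold. Over time in control eyes, edgeR's joint test called 4 of the 122 listed genes, where it called 1.54% of all genes. Of these, 3 were higher at 24 than at 6 hpi. These were cth, of cysteine synthesis, by 1.02, sars by 0.46 and yars by 0.90 (adjusted p of the joint edgeR test = 0.0097, 0.0263 and 0.0437). The other, ero1a, an ER oxidase gene, stood at 0.42 at 12 hpi and at -1.56 at 24 hpi relative to 6 hpi (adjusted p of the joint edgeR test = 0.0364). In injured eyes edgeR's joint test called 2 of the 122, where it called 1.53% of all genes. From 6 to 24 hpi cth and sars rose by 0.80 and 0.71 (adjusted p of the joint edgeR test = 0.0362 and 0.0185). These 4 genes were chosen for mention after their values were seen.

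**Figure D5:**
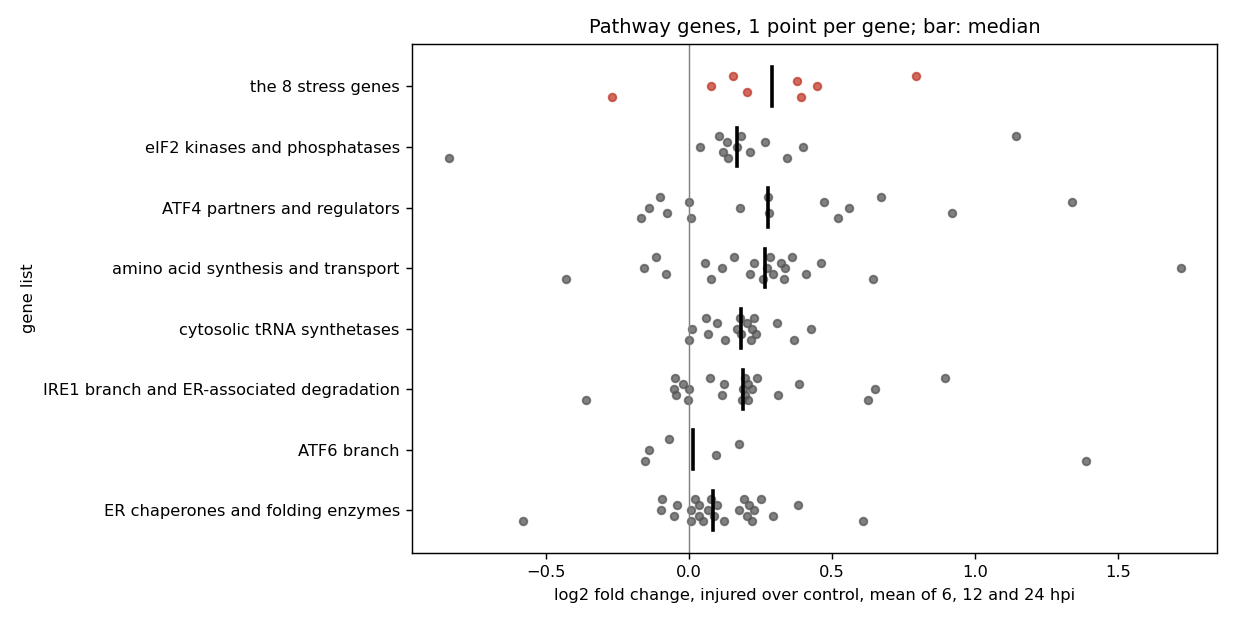
Mean injury effect over 6, 12 and 24 hpi (log2 fold change, injured over control; 1 point per gene) for the 8 stress genes (red) and the 7 pathway lists (grey), with the median of each as a black bar. The medians lie between 0.01 for the ATF6 branch and 0.29 for the 8 genes, with single low-count genes such as mthfd1l, named after its value was seen, far out at 1.72.

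Across the 18 libraries, the gene most like trib3 was atf3, a stress-induced factor gene (Pearson r of log2 CPM = 0.898), followed by jun (r = 0.860). The comparison ran over 9042 genes with an average log2 CPM of at least 3. For ddit3 the most similar were stmn4l, a stathmin gene, and cab39l (r = 0.872 and 0.821), and for hspa5 zgc:153431 and hsp90aa1.2, a cytosolic HSP90 gene (r = 0.891 and 0.885). The patterns of atf4a were closest to prom1a and si:ch211-105f12.2 (r = 0.951 each), the first of which encodes a protein of photoreceptor outer segments in mammals, and those of xbp1 to the translation factor gene eif4a1a and the sterol synthesis gene hmgcs1 (r = 0.916 and 0.915). For atf4b they were uck2a and retsat (r = 0.840 and 0.809), for chac1 calm3b and tegt (r = 0.823 and 0.819), and for the low asns it was ccdc58 (r = 0.723). All points share libraries, depth and group, so these values are descriptions. Among the 28 pairs of members r was highest for xbp1 and hspa5, at 0.667, and it was 0.621 for ddit3 and trib3. Taken as deviations from group means, r was highest for xbp1 and asns, at 0.743; ddit3 and trib3 had 0.627, atf4b and ddit3 0.519, xbp1 and hspa5 0.442, and the 2 ATF4 genes ran opposite to each other at -0.661.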

How the data were processed

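The authors deposited, per the file headers, total counts and RPKM per gene and library and, for each time point, log2 fold changes with p-values and adjusted p-values (false discovery rate). The submitters' processing notes name the GRCz11 assembly; aligner, counter and strand setting are not given in the sources used here. Per the file headers, the column of injured 6 hpi replicate 1 alone is marked as trimmed, so reads of that library may have been prepared differently before counting. Per the labels' protocols, cDNA from sorted cells was made with the SMART-Seq HT kit and libraries with Nextera XT, so counts are amplified reads, not molecules. The p-values measure the spread between libraries, and how far it includes differences between fish cannot be told from the labels.

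The counts deposited by the authors were tested with edgeR 4.0.16 (R 4.3.3): TMM factors, filterByExpr with a minimum count of 10, quasi-likelihood fit of 6 group means over 18 libraries (15490375 to 28329194 counts), Benjamini-Hochberg adjustment over 17527 genes and a threshold of 0.05. CPM used TMM library sizes. Levels between genes used the RPKM the authors deposited. DESeq2 1.42.0 (16435 genes with an adjusted p at 6 hpi), other size factors, no filter, a covariate for the repeated-number libraries, the replicate block, fits of only 6 libraries and fits without each library were alternatives. The edgeR step was tested on simulated data, with the changed genes drawn at random from all genes tested. For the effect at 24 hpi it recovered 13% of 2-fold and 60% of 4-fold changes. For the mean effect it recovered 39% of 2-fold and 77% of 4-fold changes. False calls were 6 of 79 at 24 hpi and 9 of 125 for the mean effect. These shares are over all genes, and those for genes as abundant as the members were not measured.

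The members and lists were chosen with earlier results of these data known. Pathway genes were named by the 3 smallest p-values for the mean injury effect in each list, and 2 most similar genes per member by Pearson correlation, among genes with an average log2 CPM of at least 3; 1 of the genes so chosen is not reported here. Replicate numbers were not used to pair samples in the main fits, because the labels do not tie them to a fish. Correlations of deviations between same-numbered libraries ran from -0.068 to 0.13. With 3 libraries in a group, this cannot decide whether same-numbered libraries share a fish. No replicate pair agreed within sampling noise.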

Additional observations from a re-analysis of the deposited data

How the results depend on the processing

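No member passed edgeR's adjusted threshold for an injury effect in the main fits or in any edgeR alternative run, and asns had only values below 0 at 6 and 24 hpi. Over all genes, where the edgeR fits called 0 genes for each injury effect and for its difference between times, the fit with no count filter called 2 at 24 hpi and 2 for the mean effect, the fits of only 6 libraries called 6 at 6 hpi and 50 at 24 hpi, and DESeq2 called 90, 7, 210 and 234 at 6, 12 and 24 hpi and for the mean effect, 14 for the difference, and 758 and 813 for control and injured groups over time, where edgeR called 270 and 269; of the listed pathway genes DESeq2 called 1 at 6 hpi and 2 for the mean effect. Without 1 library at a time, calls ran from 0 to 1 at 6 hpi, 0 to 7 at 24 hpi, 0 to 14 for the mean effect, 128 to 327 for control and 127 to 338 for injured groups over time, and 0 to 1 among listed genes for the mean effect; the control count was 128 and 145 without control 24 hpi replicates 2 and 1, and the injured count 151, 127 and 129 without injured 24 hpi replicates 1, 2 and 3. With the replicate block, edgeR called 1 gene at 12 hpi and 1 for the difference, and 0 at 6 and 24 hpi and for the mean effect. It called 221 and 219 over time in control and injured groups. The block kept the joint call of hspa5 over time in control eyes and changed no member's call. The hspa5 log2 change from 6 to 24 hpi was then 0.89 (adjusted p of the joint edgeR test = 0.039). Only at 6 hpi did every library correlate best with its own number.

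Direction reversed for atf4a at 12 hpi with other size factors (0.008), no filter (0.005) and DESeq2 (0.008), and, with the repeated-number covariate, for ddit3 at 6 hpi (0.41) and over time in control eyes (0.13). Without 1 library, values crossed 0 at 6 hpi for atf4a (-0.016 to 0.499), atf4b (-0.047 to 0.10) and ddit3 (-0.43 to 0.173), at 12 hpi for atf4a (-0.122 to 0.138), atf4b (-0.14 to 0.016) and asns (-0.47 to 0.247), at 24 hpi for chac1 (-0.061 to 0.011), and from 6 to 24 hpi for hspa5 (-0.02 to 0.367), chac1 (-0.146 to 0.043) and trib3 (-0.068 to 0.925) in injured eyes and ddit3 (-0.475 to 0.12) in control eyes. In the joint edgeR test over time in injured eyes, atf4a passed the threshold with no filter (adjusted p = 0.0496). It also passed without injured 6 hpi replicate 3, control 6 hpi replicate 3 or injured 12 hpi replicate 1 (adjusted p = 0.027, 0.0225 and 0.0454). In the joint edgeR test in control eyes, atf4a passed without control 6 hpi replicate 3 (adjusted p = 0.0253), and xbp1 without injured 12 hpi replicate 1 (0.028). The cause of these differences was not tested. The lowest count of a member in a library was 48, for asns.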
